A study of Mus musculus with 57 samples.

Results

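The 10 calcium handling genes described here were chosen by symbol, and all 10 were found among the 25416 gene symbols that the count tables of 2 mouse heart RNA-seq studies share. They were Atp2a2, Pln, Ryr2, Casq2, Trdn, Jph2, Cacna1c, Cacnb2, Slc8a1 and Camk2d, the core machinery that moves calcium in a cardiac muscle cell. All 10 passed the filter on low counts in both studies.

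Both studies asked how doxorubicin (Doxo), an anthracycline chemotherapy drug that damages the heart, changes heart RNA, and whether nicotinamide mononucleotide (NMN), a precursor of NAD+, alters that change. All 57 hearts came from male wild-type C57BL/6 mice. In the acute study, mice bought at 9 weeks of age were given vehicle (Ctrl, 14 hearts), 1 intraperitoneal injection of Doxo at 20 mg/kg (Doxo, 13 hearts), or the same injection with NMN injected at 180 mg/kg/day, begun 5 days ahead of Doxo (Doxo-NMN, 13 hearts). Hearts were taken at day 5. In the chronic study, mice bought at 12 weeks of age were given vehicle (Ctrl, 5 hearts), Doxo as 5 injections that summed to 20 mg/kg (Doxo, 6 hearts), or the same injections with NMN in drinking water at 500 mg/kg/day, begun 5 days ahead of the first injection (Doxo-NMN, 6 hearts). Hearts were taken at day 60. Hearts of mice that died earlier are not represented, and no group received NMN without Doxo. Each heart was 1 sample, so the p-values below measure the spread between these hearts.

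With each beat, the L-type calcium channel (Cacna1c is its pore, Cacnb2 its beta subunit) lets calcium into the cell, and this opens the ryanodine receptor Ryr2, the release channel of the sarcoplasmic reticulum. Junctophilin 2 (Jph2) holds the surface membrane and the reticulum close together, triadin (Trdn) ties Ryr2 to calsequestrin 2 (Casq2), and Casq2 buffers calcium inside the reticulum. The pump SERCA2 (Atp2a2) returns calcium to the reticulum under the restraint of phospholamban (Pln), the sodium-calcium exchanger (Slc8a1) exports it from the cell, and the kinase CaMKII delta (Camk2d) phosphorylates several of these proteins.

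The sequences before the annotated starts of Casq2, Cacna1c and Pln are shown because these members gave the largest fold changes in the acute Doxo hearts. RefSeq promoter entries on GRCm38.p6 matched 8 of the 10 members. Atp2a2 and Trdn had none. The 250 bases before the start were searched on both strands for 5 motifs. The TATA box, read as TATAAA, was in 12.4% of all 32851 promoters, and the form GATAAG bound by GATA factors was in 6.55%. The M-CAT element, read as CATTCC, was in 12.6%, and the form GGAAAA bound by NFAT was in 20.4%. A MEF2 core, a palindrome of 10 bases with free central letters, was in 3.2%. In this search the Casq2 and Cacna1c windows held no match. One further motif, the MEF2 consensus with alternative letters, was added after the Casq2 sequence had been read and because the MEF2 core had no match in any member. It matched Casq2 69 bases before the start, and 2.92% of all promoters held it. Since that motif was picked with the sequence in view, its match is a description of the letters and carries no weight beyond that. Pln held TATAAA 219 bases and GATAAG 81 bases before its start, and Slc8a1 held GATAAG 67 bases before its start. No match says only that these letters are not in the window. Sequences are written 5′ to 3′ on the strand of the gene, at chr3:102086165-102086414 (plus strand, 41.6% GC), chr6:119196410-119196659 (minus strand, the most upstream of the annotated starts, 51.6% GC) and chr10:53337436-53337685 (plus strand, 32.8% GC), and capitals mark the matches.
Casq2: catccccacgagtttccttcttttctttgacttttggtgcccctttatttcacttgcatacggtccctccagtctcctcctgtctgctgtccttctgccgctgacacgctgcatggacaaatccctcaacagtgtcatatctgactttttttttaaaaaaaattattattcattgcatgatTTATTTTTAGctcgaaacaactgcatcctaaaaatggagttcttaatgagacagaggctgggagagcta
Cacna1c: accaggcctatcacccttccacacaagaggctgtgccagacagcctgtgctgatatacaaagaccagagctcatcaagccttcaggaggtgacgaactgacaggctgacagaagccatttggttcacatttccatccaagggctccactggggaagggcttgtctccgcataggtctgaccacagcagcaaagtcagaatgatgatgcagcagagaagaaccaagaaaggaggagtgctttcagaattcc
Pln: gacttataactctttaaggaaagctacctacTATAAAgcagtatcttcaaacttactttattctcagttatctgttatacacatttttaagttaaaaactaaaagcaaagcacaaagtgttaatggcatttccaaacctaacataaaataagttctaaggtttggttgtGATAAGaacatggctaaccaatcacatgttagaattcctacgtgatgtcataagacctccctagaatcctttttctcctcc

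Total counts per heart ran from 32409622 to 52102850 in the acute study and from 17769886 to 23862287 in the chronic study, and every member was far above the floor that 3 counts set (at most 0.0926 and 0.169 CPM, counts scaled to the library total). How far a heart stood from the others was read as the median absolute log2 distance of its genes from their median over all hearts of the study. It was 0.129 to 0.496 in acute Doxo hearts against 0.141 to 0.182 in acute Ctrl hearts. This distance holds differences between the groups as well as those within a group. In the chronic study Ctrl replicate 1 (0.334), Doxo replicate 2 (0.308) and Doxo-NMN replicate 4 (0.237) stood apart from the other 14 hearts (0.0910 to 0.168). Results that rest on these hearts are given with and without them. The same distances, with their sign, were also set against exon length within each heart. Spearman rho ran from -0.217 (Doxo-NMN replicate 13) to 0.157 (Ctrl replicate 9) in acute hearts. In chronic hearts it ran from -0.292 (Doxo-NMN replicate 6) to 0.298 (Ctrl replicate 2). Ryr2 had the most exon bases of the members (28790), and the part of exon length in the members' values was not tested. In bulk tissue, fewer cells of a type and less RNA per cell cannot be told apart.

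Per length of exon, the members differed widely in level. Each level was divided by the merged exons of all annotated transcripts, so the order given here depends on that length. Undivided, Slc8a1 had an acute Ctrl median of 436 CPM, above Trdn at 387 CPM. Over the 40 acute hearts the median was 2911 CPM per kb for Atp2a2, 457 for Pln, 291 for Casq2, 159 for Jph2, 74.0 for Ryr2 and 40.8 for Trdn, all proteins of the reticulum and its junction. Slc8a1 (22.5 CPM per kb), Cacna1c (17.2), Camk2d (6.94) and Cacnb2 (5.23) were lower. This order held in all 40 hearts for most neighbours, in 39 for Pln above Casq2, in 37 for Casq2 above Jph2, in 36 for Camk2d above Cacnb2 and in 32 for Slc8a1 above Cacna1c. In the chronic hearts Cacna1c stood above Slc8a1 in 14 of 17 hearts, Pln stood above Casq2 in 13 of 17, and Ryr2 stood above Trdn in 11 of 17, so the level of these neighbours was not clearly separated. Together the members took 2.39% to 2.54% of all counts in acute Ctrl hearts, 1.76% to 2.61% in Doxo hearts and 1.37% to 2.76% in Doxo-NMN hearts. The coefficient of variation between hearts was larger in acute Doxo than in acute Ctrl hearts for 10 of 10 members. The ranges were 10.2% to 39% against 4.69% to 11.1%. It was also larger in acute Doxo-NMN than in acute Ctrl hearts for 10 of 10 members (10.3% to 22.3%). The share over all genes was not computed, so whether this is particular to the members was not tested.

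In the acute study Doxo hearts held less Casq2 and Camk2d RNA and more Cacna1c and Pln RNA than Ctrl hearts, and the other 6 members did not pass the test. The test throughout is the quasi-likelihood F-test of edgeR, with Benjamini-Hochberg adjustment over all genes tested and a threshold of 0.05. By this rule 4 of 10 members passed, 2 in each direction, where 68.1% of all 14240 genes tested passed. Past 1.5-fold as well, 2 of 10 members passed against 30.1% of all genes. Without scaling factors 8 of 10 members passed, 2 higher and 6 lower, where 9364 of 14240 genes did, so the order of these shares depends on the scaling. The median absolute log2 fold change was 0.15 over the members and 0.37 over all genes.

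**Figure D1:**
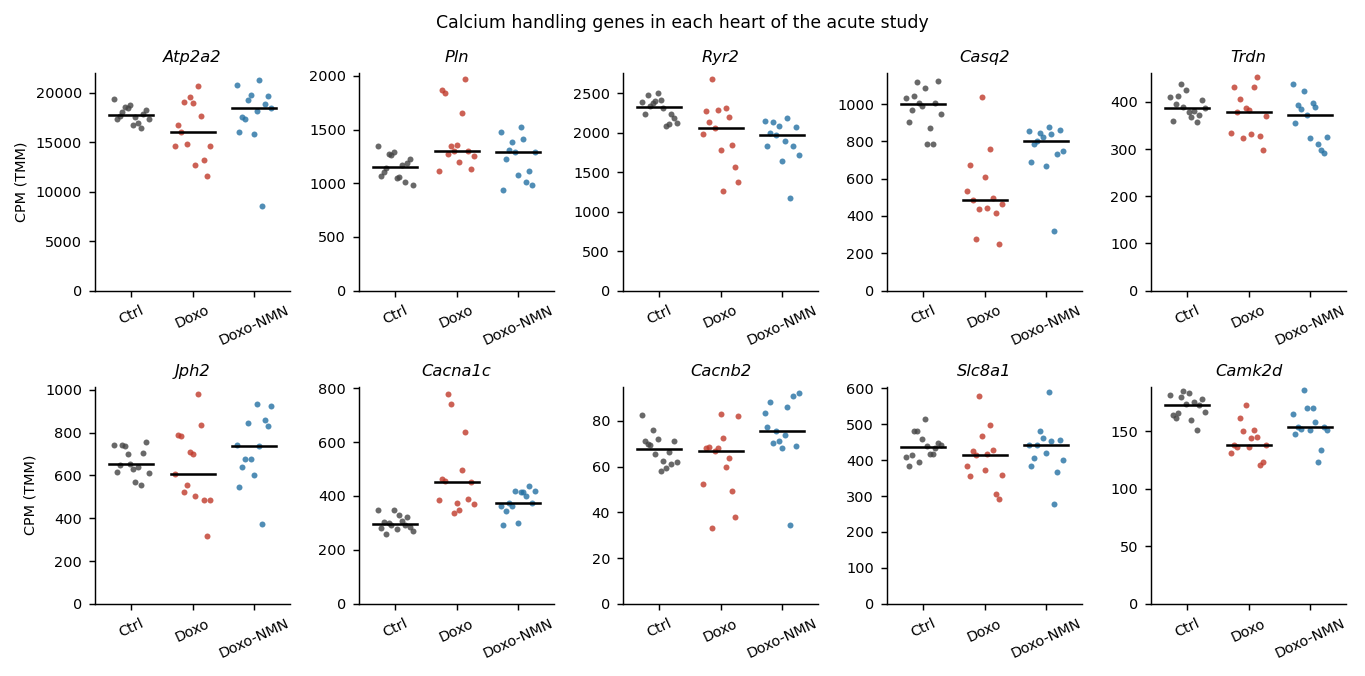
CPM of each member (vertical axes, TMM-scaled, starting at 0) in each of the 40 acute hearts, one point per heart and a bar at the group median. Casq2 lies lower and Cacna1c higher in Doxo than in Ctrl hearts, with medians of 487 against 998 CPM and 451 against 298 CPM.

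Casq2, the reticulum's calcium buffer, showed the largest change. Its lowest, median and highest values were 784, 998 and 1122 CPM in Ctrl hearts, 252, 487 and 1036 CPM in Doxo hearts, and 320, 804 and 876 CPM in Doxo-NMN hearts. Of 13 Doxo hearts, 12 lay below the lowest Ctrl heart, and Doxo replicate 6 was the exception. Casq2 fell by 0.86 ± 0.14 (SE) on the log2 scale in Doxo hearts (edgeR adjusted p = 1.81e-06).

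Cacna1c, the pore of the L-type channel, moved the other way. The Ctrl hearts held 259, 298 and 348 CPM (lowest, median, highest), the Doxo hearts 335, 451 and 780 CPM, and the Doxo-NMN hearts 294, 373 and 436 CPM. All 13 Doxo hearts were above the Ctrl median and 12 were above the highest Ctrl heart. The log2 fold change was 0.70 ± 0.10 (edgeR adjusted p = 3.12e-07).

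Pln, the inhibitor of SERCA2, held 984, 1156 and 1344 CPM in Ctrl hearts, 1118, 1300 and 1973 CPM in Doxo hearts, and 938, 1290 and 1522 CPM in Doxo-NMN hearts. The ranges overlapped, and 6 of 13 Doxo hearts were above the highest Ctrl heart. Pln rose by 0.34 ± 0.09 on the log2 scale in Doxo hearts (edgeR adjusted p = 7.75e-04). An annotated opposite-strand gene, Gm47644, shares 1644 bases (59.59%) of the Pln exons, and Cep85l shares 141. The sources used here do not state whether the libraries kept strand, so reads from these genes cannot be told apart from Pln reads.

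The kinase gene Camk2d held 152, 173 and 185 CPM in Ctrl hearts, 121, 138 and 173 CPM in Doxo hearts, and 123, 154 and 186 CPM in Doxo-NMN hearts. Of 13 Doxo hearts, 11 were below the lowest Ctrl heart. It fell by 0.24 ± 0.05 on the log2 scale in Doxo hearts (edgeR adjusted p = 1.23e-04).

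The pump and the release channel did not pass. Atp2a2 held 16396, 17766 and 19344 CPM in Ctrl hearts and 11550, 15987 and 20718 CPM in Doxo hearts, a log2 fold change of -0.11 ± 0.09 (edgeR adjusted p = 0.269). Ryr2 held 2082, 2329 and 2508 CPM in Ctrl hearts and 1257, 2059 and 2679 CPM in Doxo hearts, with 12 of 13 Doxo hearts below the Ctrl median and a log2 fold change of -0.19 ± 0.09 (edgeR adjusted p = 0.0535). Ryr2 sat at the threshold: it passed in 21 of 53 other settings, among them DESeq2 and the fit with Myl4 as a covariate, and did not pass in the rest. The junction genes Trdn and Jph2, the channel subunit Cacnb2 and the exchanger Slc8a1 had log2 fold changes between -0.10 and -0.04.

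**Figure D2:**
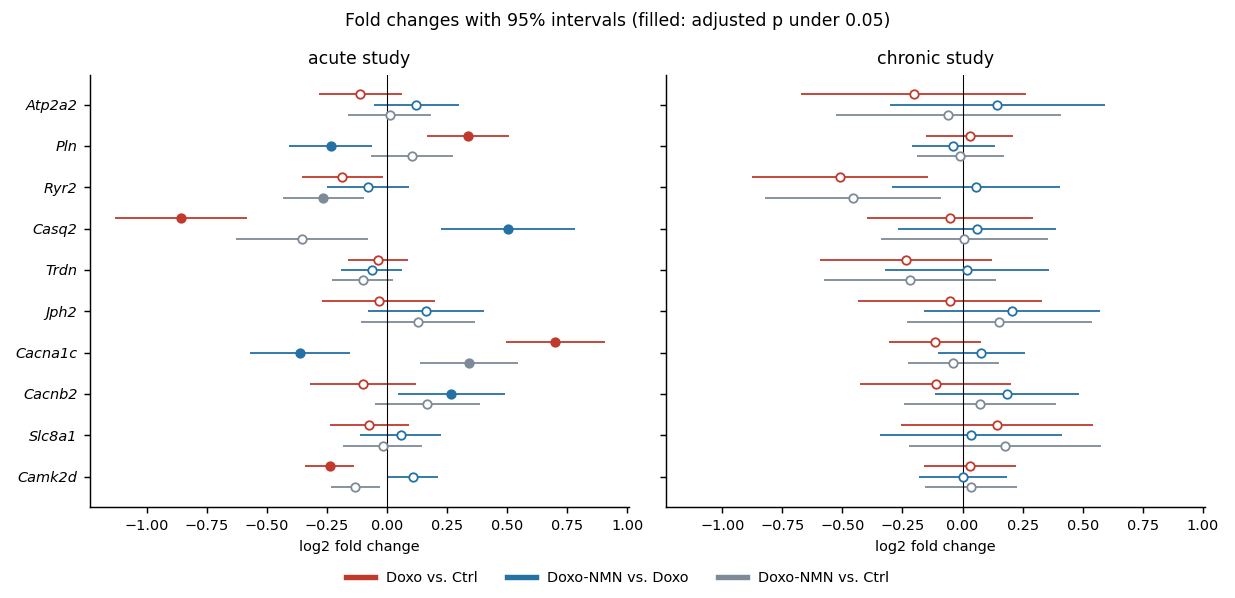
Log2 fold changes of the 10 members (horizontal axes) with 95% intervals for the comparisons between groups in the acute study (left) and the chronic study (right), with filled points where the adjusted p was under 0.05. In the acute study Casq2 (-0.86) and Cacna1c (0.70) lie farthest from 0, and no point is filled in the chronic study.

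Pln was also read relative to its target pump. The median ratio of Pln to Atp2a2 CPM was 0.0651 in acute Ctrl hearts, 0.0911 in Doxo hearts and 0.0695 in Doxo-NMN hearts. The mean log2 ratio was 0.45 higher in Doxo than in Ctrl hearts (two-sided permutation test, 100000 resamples, p = 4.00e-05, adjusted p = 0.000480 over 12 ratio comparisons). It was lower by 0.34 in Doxo-NMN than in Doxo hearts, a difference of -0.34 (permutation test, adjusted p = 0.0385), and 18 of the 26 repeats that left out 1 heart no longer passed. The ratio of Slc8a1 to Atp2a2 differed by 0.04 between acute Doxo and Ctrl hearts (permutation test, adjusted p = 0.788).

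**Figure D3:**
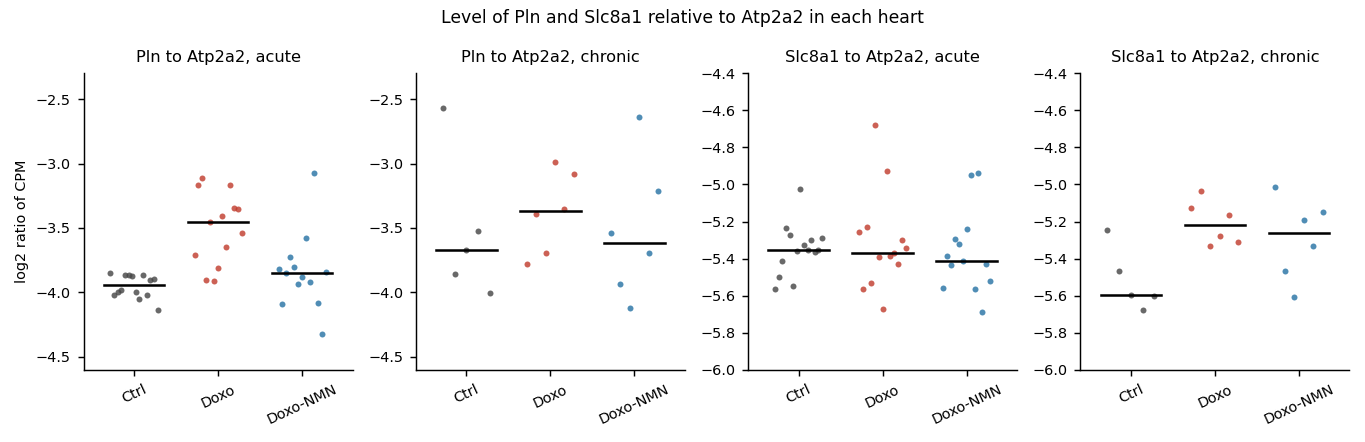
Log2 ratios of Pln to Atp2a2 and of Slc8a1 to Atp2a2 in each heart, by study and group, one point per heart and a bar at the group median. The acute Doxo hearts have a higher Pln to Atp2a2 ratio, with a median of -3.46 against -3.94 in Ctrl hearts.

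With NMN, the acute Doxo hearts held more Casq2 and Cacnb2 RNA and less Cacna1c and Pln RNA than the hearts given Doxo alone. These were 4 of 10 members, where 53% of all genes passed, and 0 of 10 members passed with 1.5-fold as well (17.1% of all genes). Casq2 rose by 0.50 ± 0.14 on the log2 scale (edgeR adjusted p = 0.00328), and 12 of 13 Doxo-NMN hearts were above the Doxo median. Within the hearts at or under 100 CPM of Myl4 the Casq2 call was lost (0.41, edgeR adjusted p = 0.0984). Cacna1c fell by 0.36 ± 0.11 (edgeR adjusted p = 0.00438), and 13 of 13 Doxo-NMN hearts were below the Doxo median.

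Pln fell by 0.23 ± 0.09 (edgeR adjusted p = 0.0247), a call that was kept in 44 of 53 other settings and lost, among others, without scaling and on either side of 100 CPM of Myl4. Cacnb2 held 33, 66.8 and 83.2 CPM in Doxo hearts and 34.4, 75.8 and 92.1 CPM in Doxo-NMN hearts, and it rose by 0.27 ± 0.11 (edgeR adjusted p = 0.0451), a call that was kept in 35 of 53 other settings. Camk2d had a log2 fold change of 0.11 ± 0.05 (edgeR adjusted p = 0.0867). The comparison of Doxo with Ctrl and that of Doxo-NMN with Doxo share the Doxo hearts, so opposite signs in them are not independent.

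Set against Ctrl hearts, the Doxo-NMN hearts differed in 2 of 10 members, where 26% of all genes passed, and in 0 members with 1.5-fold as well (7.11% of all genes). Without regard to fold, 4 of 10 members were at an unadjusted p under 0.05 by edgeR, all of them under 1.5-fold. Of all 14240 genes 5386 were at such a p. Ryr2 fell by 0.26 ± 0.09 (edgeR adjusted p = 0.0204), with 1174, 1973 and 2182 CPM in Doxo-NMN hearts, all 13 of them below the Ctrl median. Cacna1c rose by 0.34 ± 0.10 (edgeR adjusted p = 0.0140), and 10 of 13 hearts were above the highest Ctrl heart. Casq2 (-0.35 ± 0.14, edgeR adjusted p = 0.0558) and Camk2d (-0.13 ± 0.05, edgeR adjusted p = 0.0563) sat just outside the threshold, and a p that misses it does not show that the groups were alike. The Ryr2 and Cacna1c calls were lost within the hearts at or under 100 CPM of Myl4 and within those above it. Spearman rho with exon length ran from -0.107 to 0.157 in Ctrl hearts and from -0.217 to 0.120 in Doxo-NMN hearts. It was lowest in Doxo-NMN replicates 13, 11 and 12, and the part of exon length in the Ryr2 call was not tested.

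The summed atrial and red cell markers differed in median between the acute groups. The summed level of 6 atrial markers had a median of 2540 CPM in Ctrl hearts (53.7 to 5262), 57.8 CPM in Doxo hearts (37.1 to 1660) and 63.2 CPM in Doxo-NMN hearts (33.9 to 3605). Every group mixed hearts low and high in atrial markers. At or under 100 CPM of Myl4, one of these markers, were 6 Ctrl, 8 Doxo and 9 Doxo-NMN hearts, and above it 8, 5 and 4. The medians therefore also reflect which side held more hearts of a group. Of the 6 markers 3 passed for Doxo against Ctrl, all lower, and 0 for Doxo-NMN against Doxo. The 3 red cell markers had medians of 879, 1.69 and 1.15 CPM, with Doxo hearts from 0.860 to 263 CPM and Ctrl hearts from 341 to 3411 CPM. The 263 CPM belonged to Doxo replicate 6, the heart that was also the Casq2 exception, and the other 12 Doxo hearts were at most 3.17 CPM. Without Doxo replicate 6 the log2 fold changes of Doxo against Ctrl were -0.97 for Casq2 and 0.74 for Cacna1c. With Myl4, an atrial light chain, as a covariate Casq2 had a log2 difference of -0.92 and Cacna1c of 0.63 between Doxo and Ctrl hearts. Within the hearts at or under 100 CPM of Myl4 (6 Ctrl, 8 Doxo) they were -0.86 and 0.73, and within those above it (8 Ctrl, 5 Doxo) -0.97 and 0.54, each with an edgeR adjusted p under the threshold. The part of the red cell markers in the result was not tested.

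The 10 cardiomyocyte markers summed to 61338 to 76952 CPM in acute Ctrl hearts, 34627 to 80582 in Doxo hearts and 43756 to 88169 in Doxo-NMN hearts, and 5 of them rose and 4 fell with Doxo. For Doxo against Ctrl 68.1% of all genes passed the test. Among the other lists 2 of 3 ventricular (2 lower), 3 of 6 endothelial (2 higher, 1 lower) and 4 of 6 fibroblast markers (1 higher, 3 lower) passed. So did 1 of 4 mural (lower), 3 of 5 macrophage (1 higher, 2 lower) and 1 of 3 tested adipocyte markers (lower). Their part in the members' values was not tested. The skeletal muscle markers summed to 0.251 to 2.39 CPM in acute hearts and to 341 to 1802 CPM in chronic hearts, highest in Ctrl replicate 1 (1802) and Ctrl replicate 2 (1590).

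In the chronic study no member passed in any comparison by edgeR. For Doxo against Ctrl this was 0 of 10 members, where 0.0602% of all 14960 genes passed. For Doxo-NMN against Doxo it was 0 of 10, where 0% of all genes passed (441 were at an unadjusted p under 0.05), and for Doxo-NMN against Ctrl 0 of 10, where 0.0401% passed. At an unadjusted p under 0.05 the members numbered 1, 0 and 1 of 10, and all genes 1174, 441 and 707 of 14960. DESeq2 called 0, 0 and 0 members and limma voom 1, 0 and 0. Few genes passed at all in this study, so a member that missed the threshold was in the position of nearly every gene.

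Ryr2 was the member nearest to the threshold. The Ctrl hearts held 657, 1569, 1224, 1043 and 1407 CPM (replicates 1 to 5), the Doxo hearts 661, 838 and 987 CPM (lowest, median, highest) and the Doxo-NMN hearts 634, 849 and 1082 CPM. Without Ctrl replicate 1, the lowest Ctrl value would be 1043 CPM, above all 6 Doxo hearts. The log2 fold change of Doxo against Ctrl was -0.51 ± 0.19 (edgeR p = 0.0129, adjusted p = 0.567), and -0.65 without Ctrl replicate 1 (edgeR adjusted p = 0.251). Only limma voom with sample weights called it (-0.64, adjusted p = 0.0318), in 1 of 27 other settings. Spearman rho with exon length was -0.131, 0.298, -0.0324, -0.179 and 0.0945 in Ctrl replicates 1 to 5. In the Doxo hearts it ran from -0.0132 to 0.0730. The part of exon length in the Ryr2 values was not tested.

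**Figure D4:**
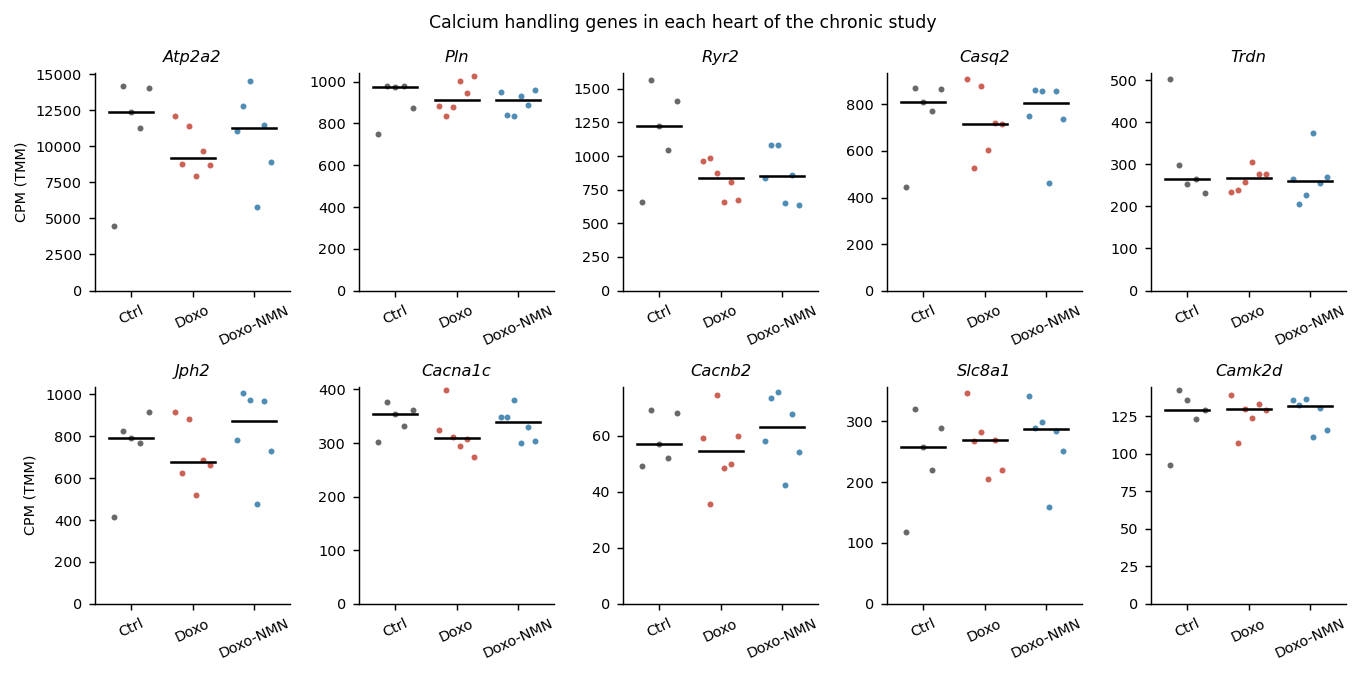
CPM of each member (vertical axes, starting at 0) in each of the 17 chronic hearts, one point per heart and a bar at the group median. One Ctrl heart, replicate 1, is low for Atp2a2 (4452 CPM) and Casq2 (447 CPM) and high for Trdn (502 CPM).

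The ratio of Slc8a1 to Atp2a2 had a median of -5.59 on the log2 scale in chronic Ctrl hearts and -5.22 in chronic Doxo hearts, and its mean was 0.31 higher in Doxo hearts (exact permutation test, two-sided, p = 0.0173, adjusted p = 0.0693). That of Pln to Atp2a2 differed by 0.14 (exact permutation test, adjusted p = 0.788).

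Ctrl replicate 1 also stood apart in other members. Its Atp2a2 level was 4452 CPM where the chronic Ctrl median was 12409 CPM, and with it the Doxo hearts differed in Atp2a2 by -0.20 ± 0.24 on the log2 scale (edgeR adjusted p = 0.849) and -0.40 without it (adjusted p = 0.552). Trdn had -0.24 ± 0.18 with it and 0.02 without it. The 95% intervals of Doxo against Ctrl reached from -0.88 to 0.54 over the 10 members, so changes of the size seen for Casq2 and Cacna1c in the acute study were outside the intervals of those genes (-0.40 to 0.29 and -0.31 to 0.08).

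The Doxo effect itself differed between the studies for Casq2 and Cacna1c. In a fit over both studies with an interaction term, 2 of 10 members passed, where 19.3% of all 14965 genes passed. The Doxo effect on Casq2 was 0.81 ± 0.26 higher in the chronic study (edgeR adjusted p = 0.0284), and that on Cacna1c was lower, by -0.81 ± 0.19 (edgeR adjusted p = 0.00684). The Cacna1c call held in 48 of 48 other settings. The Casq2 call held in 44 of 48, and 3 of the 4 settings that lost it left out chronic Ctrl replicate 1 (0.67, edgeR adjusted p = 0.0717), Doxo replicate 1 (0.0582) or Doxo replicate 3 (0.0547). The studies differ, among other things, in dose schedule, time, age, mouse supplier, sequencing site, depth and skeletal muscle marker level, and these cannot be told apart.

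**Figure D5:**
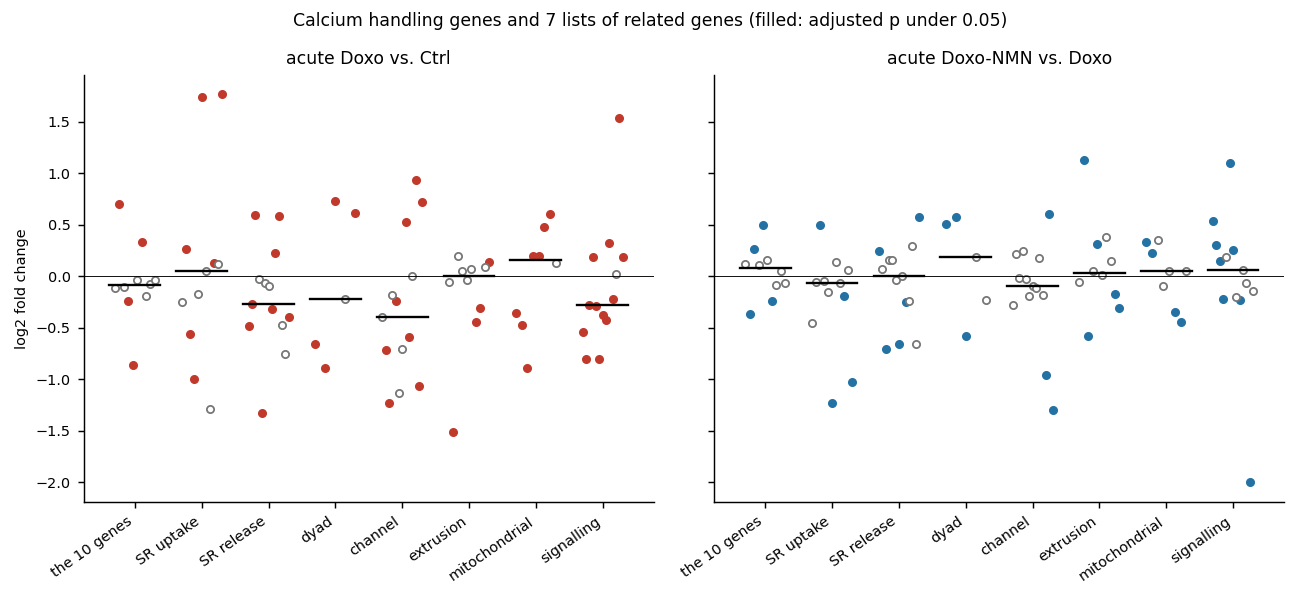
Log2 fold change (vertical axes) of the 10 members and of each gene in 7 lists of related calcium genes, for Doxo against Ctrl (left) and Doxo-NMN against Doxo (right) in the acute study, one point per gene, filled where the adjusted p was under 0.05, with a bar at the median of each list. With Doxo the lists hold points on both sides of 0, from Casq1 at -1.33 to Tmem38b at 1.77 among the named genes.

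A list of 77 further calcium genes put the members in context, of which 73 were tested in the acute study. In Doxo against Ctrl hearts 21 rose and 28 fell (67.1%, against 68.1% of all genes). In Doxo-NMN against Doxo hearts 15 rose and 17 fell (43.8%, against 53%), and in Doxo-NMN against Ctrl hearts 8 rose and 19 fell (37%, against 26%). The chronic study had 0 of 74 in each comparison by edgeR, with 8 (Doxo against Ctrl), 2 (Doxo-NMN against Doxo) and 8 (Doxo-NMN against Ctrl) at an unadjusted p under 0.05. Over all 14960 genes these unadjusted counts were 1174, 441 and 707. DESeq2 called 0 in each, and limma voom called 1, 0 and 0.

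Among the uptake genes 4 of 11 rose and 2 fell with Doxo (54.5%, against 68.1% of all genes). Tmem38b, a reticulum cation channel, held 27.5, 30.8 and 37.5 CPM in Ctrl hearts, 30.6, 100 and 166 CPM in Doxo hearts and 28.7, 45.0 and 124 CPM in Doxo-NMN hearts. It rose by 1.77 ± 0.18 with Doxo (edgeR adjusted p = 2.93e-10) and was lower by 1.03 with NMN, a log2 fold change of -1.03. Ppp1r3a, a subunit of protein phosphatase 1, rose by 1.75 with Doxo and fell by 1.22 with NMN, and Hrc, a calcium-binding protein of the reticulum, fell by 0.56 with Doxo and rose by 0.50 with NMN. Against Ctrl hearts, the Doxo-NMN hearts stayed higher in Tmem38b (0.74, edgeR adjusted p = 0.00203) and Ppp1r3a (0.52, edgeR adjusted p = 0.0103). Hrc did not pass there (-0.06, edgeR adjusted p = 0.759). With Doxo S100a1 had a log2 fold change of 0.05 and did not pass. Sln, the atrial regulator of SERCA, had -1.28 ± 1.15 and did not pass.

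Among the release genes 3 of 13 rose and 5 fell with Doxo (61.5%, against 68.1% of all genes). Calm2, a calmodulin gene, rose by 0.59 with Doxo and fell by 0.71 with NMN. Asph, whose locus encodes junctin, fell by 0.48 with Doxo and rose by 0.25 with NMN. Casq1, the paralog of Casq2, fell by 1.33 at low level (median 7.64 CPM in Ctrl hearts), and the inositol trisphosphate receptor gene Itpr1 fell by 0.31. With NMN neither Casq1 (0.16) nor Itpr1 (0.004) passed. Casq1 stayed lower in Doxo-NMN than in Ctrl hearts (-1.16, edgeR adjusted p = 0.000477), as did Itpr1 (-0.31, edgeR adjusted p = 0.00296). Asph also stayed lower there (-0.24, edgeR adjusted p = 0.0209), while Calm2 did not pass (-0.12). Fkbp1b was at 0.118 to 1.05 CPM in Ctrl hearts and had a log2 fold change of -0.09 with Doxo. At 0.155 to 0.631 CPM, it was lower in Doxo-NMN than in Doxo hearts (-0.66, edgeR adjusted p = 0.0378). It was also lower in Doxo-NMN than in Ctrl hearts (-0.75, edgeR adjusted p = 0.0316).

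The 5 dyad genes organise the membranes where channel and release site meet. With Doxo 2 rose and 2 fell (80%, against 68.1% of all genes), and with NMN 2 rose and 1 fell (60%, against 53%). The 3 named by the rule are given here. Ank2 fell by 0.66 with Doxo and rose by 0.51 with NMN. Bin1 fell by 0.89 and rose by 0.57, and Cav3 rose by 0.73 and fell by 0.58. Against Ctrl hearts, the Doxo-NMN hearts stayed lower in Bin1 (-0.32, edgeR adjusted p = 0.0466). Ank2 (-0.15) and Cav3 (0.15) did not pass there. Of the channel genes 3 of 13 rose and 5 fell with Doxo (61.5%, against 68.1% of all genes). Among them Cacna2d1, a channel subunit, fell by 0.24. With NMN Cacna2d1 did not pass (-0.03), and it stayed lower in Doxo-NMN than in Ctrl hearts (-0.27, edgeR adjusted p = 0.00442). Rrad, which inhibits the channel, had 83.4, 161 and 1274 CPM in Doxo hearts and a Ctrl median of 162 CPM. Its rise of 0.72 (edgeR adjusted p = 0.0256) therefore came with medians that hardly differed. With NMN Rrad had a log2 fold change of -1.30 (edgeR adjusted p = 0.000429). In Doxo-NMN against Ctrl hearts it did not pass (-0.58, edgeR adjusted p = 0.135).

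With Doxo, 1 of 10 extrusion genes rose and 3 fell (40%), and 4 of 8 mitochondrial genes rose and 3 fell (87.5%). Of the signalling genes 4 of 13 rose and 8 fell (92.3%). The share over all genes was 68.1%. Camk2a and Camk2b, other CaMKII isoforms, fell by 0.54 and 0.80 with Doxo and rose by 0.54 and 0.30 with NMN. Camk2b stayed lower in Doxo-NMN than in Ctrl hearts (-0.50, edgeR adjusted p = 0.000641), while Camk2a did not pass (0.002). Rcan1, a calcineurin inhibitor, rose by 1.54 with Doxo, again with a wide Doxo range (80.2, 166 and 1338 CPM), and fell by 2.0 with NMN. Ppp3ca, a calcineurin subunit, rose by 0.32 and fell by 0.23, and Nfatc2, a transcription factor that calcineurin activates, fell by 0.80 and rose by 1.10. In Doxo-NMN against Ctrl hearts Rcan1 (-0.46), Ppp3ca (0.10) and Nfatc2 (0.30) did not pass. Nfatc4, of the same family as Nfatc2, fell by 0.42 with Doxo. With NMN it did not pass (-0.20), and it stayed lower in Doxo-NMN than in Ctrl hearts (-0.62, edgeR adjusted p = 0.000442).

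Within groups the members tended to vary together across hearts, which is given as a description. With group means removed, the median Pearson correlation over 45 pairs was 0.50 in the 40 acute hearts, with 43 pairs above 0. Atp2a2 and Jph2 had r = 0.79 and rho = 0.72 (r = 0.66 without the 2 hearts farthest out). In the 17 chronic hearts the median was 0.56, and Trdn ran against Atp2a2 with r = -0.91 (rho = -0.82), or -0.68 without Ctrl replicate 1 and Doxo-NMN replicate 4. All values in a heart share its library and its scaling. The genes whose level followed the members' mean most closely over the 40 acute hearts, of 14230 compared, were Fhl2 (r = 0.92), Fopnl (0.91), Acyp2 (0.91), Smyd1 (0.91) and Tnni3k (0.90).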

How the data were processed

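The deposited files were 2 tables of whole-number read counts per gene, 1 per study. Per the submitters' processing notes, the authors aligned poly(A)-selected reads to mm10 with STAR 2.7.3a and counted them with featureCounts 2.0.0. Library strand was not given in the sources used here. Counts were tested as deposited, per study over the 3 groups, with edgeR 4.0.16 (R 4.3.3; TMM scaling, filterByExpr, quasi-likelihood F-test), and p-values were adjusted over all genes tested by Benjamini-Hochberg. An interaction term compared the Doxo effect between studies on the 25416 shared symbols. Standard errors are the log2 fold change over the root of F. CPM values use TMM-scaled totals, and levels per kb use merged GENCODE vM21 exons. Log2 ratios were compared by permutation tests, two-sided, which were exact for groups under 10 hearts and otherwise drew 100000 resamples, with scipy 1.17.1, and the 12 comparisons were adjusted together. Alternatives were DESeq2 1.42.0, limma 3.58.1 voom with sample weights, other scaling and filters, only the groups compared, a replicate block, Myl4 as a covariate or a split at 100 CPM, and leaving out each heart. The fit was tested on simulated counts.

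The members and gene lists were chosen with earlier results of these data known. Named pathway genes were a fixed group of 10 and, per comparison, the 4 others with the smallest adjusted p. A gene so chosen is not reported here. Motif searches used both strands of the 250 bases before each RefSeq start. The MEF2 consensus was added to the first 5 motifs after the member sequences had been read, since the MEF2 form searched first had no match. Counting intervals were not used, and the floor of 3 counts covers counting error only.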

Additional observations from a re-analysis of the deposited data

Results flagged for a closer look

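In 36 sets of chronic values (10 members and 2 ratios, each in 3 groups) tested for 1 heart far from the rest, 4 values stood apart, and chance flags about 1 in 20 groups. They were Casq2 in Ctrl replicate 1 (447 CPM, the lowest of 5 hearts) and in Doxo-NMN replicate 4 (464 CPM, the lowest of 6), and Trdn in the same hearts (502 and 375 CPM, each the highest of its group). Both hearts were among those that stood apart over all genes.

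The Doxo effect differed between the chronic and the acute study, by the interaction term in edgeR, for Casq2 (0.81 on the log2 scale, adjusted p = 0.0284) and for Cacna1c (-0.81, adjusted p = 0.00684). The Casq2 call was lost in 4 of 48 other settings. Schedule, time, age, mouse supplier, sequencing site, depth and skeletal muscle marker level, among other things, differ between the studies with it and cannot be told apart.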

How the results depend on the processing

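Of 2880 member fold changes recomputed, 2758 had the sign given above and 122 the other. Calls for Casq2, Cacna1c and Camk2d in acute Doxo against Ctrl hearts, and for Cacna1c with NMN, held in 53 of 53 settings, and the Pln call in 52 (0.24, adjusted p = 0.0953, at or under 100 CPM of Myl4). For Doxo against Ctrl, 8 members passed without scaling (9364 of all 14240 genes), which shifted the median of all genes by -0.09. Without 1 heart 4 to 5 members passed (9447 to 10001 genes). Past 1.5-fold it was 1 without scaling and above 100 CPM of Myl4. For Doxo-NMN against Doxo, 7 members passed by limma voom (8864 of all 14240 genes) and 2 with only the groups compared (6546 of 13827). At or under 100 CPM of Myl4 1 member passed (5581 of 14265 genes). Without 1 heart 2 to 6 members passed (7135 to 8303 genes), with 2 without Doxo replicate 9 or 10. Past 1.5-fold it was 1 by limma voom and above 100 CPM of Myl4, and 0 to 1 without 1 heart (1 without Doxo replicate 6). For Doxo-NMN against Ctrl, 4 passed by DESeq2, with 10 counts in every heart, with only the groups compared and with the Myl4 covariate, 5 by limma voom, 0 on either side of 100 CPM of Myl4, and 2 to 4 without 1 heart (4 without Ctrl replicate 11, Doxo replicate 4 or Doxo replicate 6). In the chronic study limma voom called 1 member for Doxo against Ctrl. The difference between studies had 5 members by limma voom and 1 to 3 without 1 heart.

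Slc8a1 changed sign at or under 100 CPM of Myl4, to 0.0171 for Doxo against Ctrl and -0.0197 for Doxo-NMN against Doxo. There the log2 ratio of Pln to Atp2a2 was 0.35 for Doxo against Ctrl (adjusted p = 0.108) and -0.29 for Doxo-NMN against Doxo (adjusted p = 0.299), no longer past the threshold, and that of Slc8a1 to Atp2a2 was 0.0337 for Doxo-NMN against Ctrl. Without 1 heart the Pln ratio ran from -0.40 to -0.30 for acute Doxo-NMN against Doxo and from -0.17 to 0.24 for chronic Doxo-NMN against Ctrl. The Slc8a1 ratio ran from -0.0157 to 0.0673, -0.0870 to 0.00145 and -0.0498 to 0.0127 in the acute comparisons (Doxo against Ctrl, Doxo-NMN against Doxo, Doxo-NMN against Ctrl), and from 0.27 to 0.38 in chronic Doxo against Ctrl, where it passed without Ctrl replicate 1 (0.38, exact permutation adjusted p = 0.0381). The cause of these shifts was not tested.

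With group means removed, correlations of same-numbered hearts ran from -0.62 to 0.58, and their medians by comparison from -0.14 to 0.26. The highest median was that of acute Doxo-NMN against Ctrl, where 8 of 13 pairs were over 0.1. In 1 of these 13 pairs the best match of a heart carried its own number. These values do not settle whether the numbers pair the hearts. With a replicate block 5, 4 and 3 members passed in the acute comparisons, 0 in each chronic comparison and 1 for the difference between studies, where Casq2 was no longer past the threshold (0.90, adjusted p = 0.0653), and the chronic Pln ratio for Doxo-NMN against Ctrl was -0.0584.

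Over all genes, calls for acute Doxo-NMN against Ctrl went from 3705 to 5889 by limma voom, 1124 at or under and 1345 above 100 CPM of Myl4. They went to 3954 by DESeq2, 3380 with 10 counts in every heart, 5523 with only the groups compared and 3945 with the Myl4 covariate. Chronic Doxo against Ctrl went from 9 to 24 (DESeq2), 54 (limma voom), 15 (no filter), 0 (10 counts in every heart) and 5 to 11 without 1 heart, and chronic Doxo-NMN against Ctrl from 6 to 26 (limma voom) and 0 (10 counts in every heart). The difference between studies went from 2887 to 6995 (limma voom), 1223 (replicate block) and 2073 to 4604 without 1 heart (4604 without acute Doxo replicate 6). With 5 or 6 hearts a group, the chronic study could place a member's fold change only within the intervals given above.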
